A study of Mus musculus with 4 samples.

Results

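Potassium channel genes were examined in mRNA from the mPFC (medial prefrontal cortex) of C57BL/6 mice (C57BL/6J in the methods of the study). The members are all genes of the deposited table whose symbol starts with Kcn, the stem that mouse nomenclature gives to potassium channels and most of their accessory subunits, and there were 92 of them among 17778 genes. The CUMS group (2 libraries) came from mice that had lived under chronic unpredictable mild stress (CUMS), a changing schedule of mild stressors such as isolation, tilted or damp cages, restraint, noise and disturbed light, and that had then met all behavioral criteria of a depression-like state. The control group (2 libraries) came from unstressed mice, and all mice of the study were males taken as juveniles. No transgene or drug is named for either group. Stressed mice that stayed resilient were not part of the study, so that the CUMS group stands for susceptible animals and not for stress as such. Levels are given as RPKM, that is, reads scaled to gene length in kilobases and to library size, and the table holds 1 mean per gene and group. Without values of single libraries the spread between mice is unknown, and no test between the conditions was made.

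Potassium channels let potassium ions leave the cell, which holds the membrane at rest and ends the action potential. Voltage-gated (Kv) channels open when the membrane depolarizes, calcium- and sodium-activated channels open when these ions enter, inward rectifiers (Kir) and two-pore-domain (K2P) channels carry current near rest. Pore subunits assemble with accessory proteins that set where and how fast they work. In the cortex, fast-spiking interneurons are known for Kv3 channels, pyramidal cells for Kv4, Kv7 and inward rectifiers, and astrocytes and oligodendrocytes for Kir channels that clear potassium after firing.

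The number of fragments behind a value was estimated from the size of the smallest steps in the table, which gave 7385524 fragments for a control library and 7440476 for a CUMS library. These estimates are below the read numbers that the study gives, and the difference was not resolved. From these a 95% counting interval was computed for each log2 ratio of CUMS to control. It covers counting error only and is narrower than the error of an experiment with mice. A value of 0.01 RPKM stands for 0 in the table.

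Of the 92 members, 73 reached 0.5 RPKM in at least 1 group and 19 did not. The summed level of all members was 1418 RPKM in control against 1427 RPKM in CUMS, a log2 ratio of the sums of 0.0087 (counting interval -0.0076 to 0.025). Among the 73 members, 36 were higher and 37 were lower in CUMS, and the median log2 ratio was -0.0045, against -0.015 over all 14257 genes of this level. The middle 50% of members lay between -0.19 and 0.12, against -0.15 and 0.11 over all genes. A difference above 1.5-fold, the size that the study required, was seen in 4 members, 2 higher and 2 lower in CUMS, which is 5.48% of the 73. The share over all genes was 7.18%, with 2.77% higher and 4.41% lower. Among the 47 members of at least 5 RPKM, 0 exceeded 1.5-fold, where 1.6% of all genes did. In the range of 0.5 to 5 RPKM it was 4 of 26 members (15.4%), against 18.0% of all genes.

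**Figure D1:**
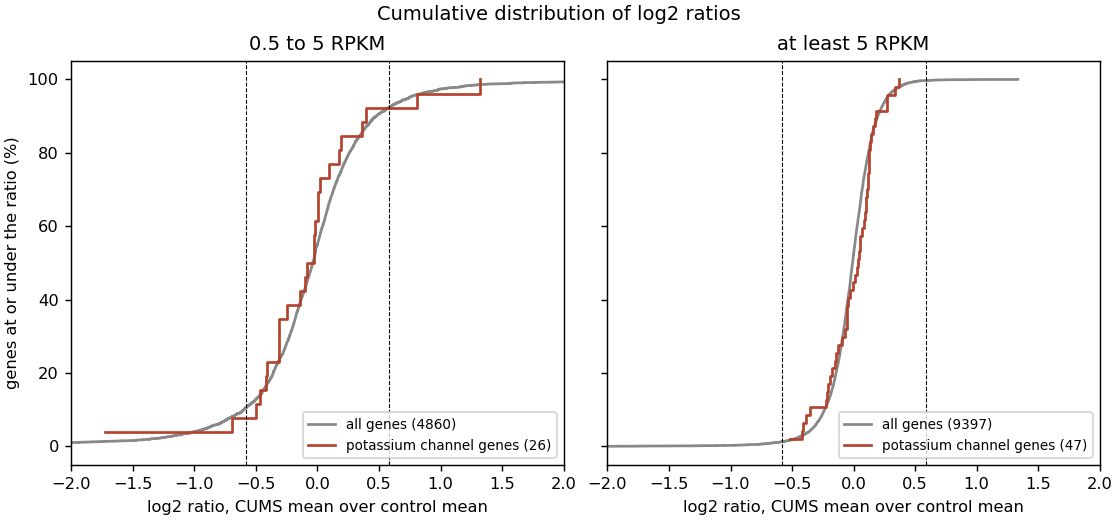
Cumulative share of genes (y axis, percent) at or under a log2 ratio of CUMS to control (x axis), for genes of 0.5 to 5 RPKM (left) and of at least 5 RPKM (right) in either group; grey is all genes, red is potassium channel genes, and dashed lines mark 1.5-fold. Both red curves run close to the grey ones, and on the right no member lies beyond the dashed lines.

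Smaller differences were common. The counting interval excluded 0 in 27 of the 73 members (37.0%), 12 higher and 15 lower in CUMS, against 29.3% of all genes, with 12.5% higher and 16.8% lower. Among members of at least 5 RPKM it was 21 of 47 (44.7%), against 35.2% of all genes. The share of members with an absolute log2 ratio under 0.25 was 69.9%, against 73.3% of all genes. For comparison, 4 of 33 sodium and calcium channel genes (symbols starting with Scn or Cacn) that passed the same level exceeded 1.5-fold. No test of that difference was made.

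**Figure D2:**
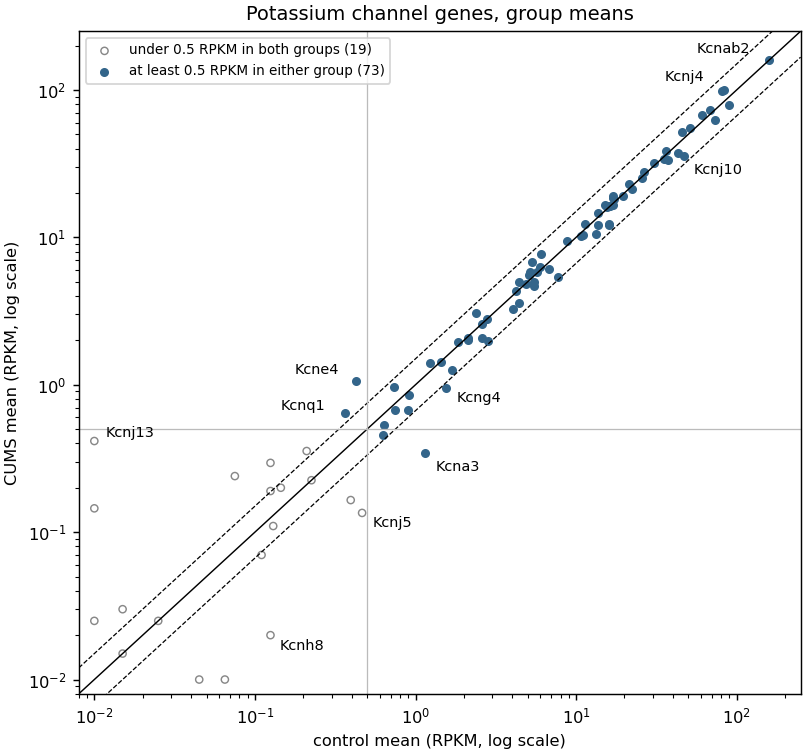
Control mean (x axis) against CUMS mean (y axis) of the 92 potassium channel genes in RPKM, both on log scales; filled points reached 0.5 RPKM in either group (grey lines), open points did not, the solid line is equality and dashed lines are 1.5-fold. Points above 5 RPKM lie inside the dashed lines, and the 4 filled points outside them are Kcna3, Kcng4, Kcne4 and Kcnq1.

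The members beyond 1.5-fold were all of low level. Kcna3, a Kv1 subunit best known from lymphocytes and the olfactory bulb, was 1.15 RPKM in control (33 fragments) and 0.345 RPKM in CUMS (10 fragments), a log2 ratio of -1.73 (counting interval -2.92 to -0.68). Kcng4, a subunit that is silent alone and modifies Kv2 channels, was 1.54 and 0.95 RPKM in control and CUMS (87 and 54 fragments), a log2 ratio of -0.70 (-1.22 to -0.19). Both were lower in CUMS. Kcne4, a small accessory subunit that dampens Kv currents, was 0.425 and 1.06 RPKM (16 and 39 fragments), a log2 ratio of 1.32 (0.40 to 2.21). Kcnq1, the Kv7 subunit of heart and epithelia, was 0.365 and 0.64 RPKM (16 and 29 fragments), a log2 ratio of 0.81 whose interval from -0.081 to 1.83 included 0. Kcna3 reached 0.5 RPKM only in control, and Kcne4 and Kcnq1 only in CUMS, so that the level limit itself favors a large ratio in these genes. Of the 69 members with at least 0.5 RPKM in both groups, Kcng4 alone exceeded 1.5-fold (1.45%), against 4.64% of all such genes. Just under the limit, Kcnj5 had 0.465 and 0.135 RPKM (31 and 9 fragments) and Kcnmb1 had 0.395 and 0.165 RPKM (24 and 10 fragments). Between them stood Kcnj13, which is given with the other low members. Just above the limit, Kcnmb2 had 0.63 and 0.455 RPKM, Kcnq1ot1 had 0.635 and 0.535 RPKM, and Kcnq1 had 0.64 RPKM in CUMS. With other limits the members again stood near all genes. With no limit on the level, 18 of 92 members exceeded 1.5-fold (19.0% of all genes). From 1 RPKM upward it was 3 members (4.79% of all genes), and after 0.5 RPKM had been added to both means it was 2 (3.59% of all genes). An absolute log2 ratio above 0.32 was seen in 17 of the 73 members (18.9% of all genes) and a difference above 2-fold in 2 (2.45% of all genes).

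Levels differed far more between members than between groups. The 10 highest members in control, among them Kcnab2, Kcnmb4, Kcnj4, Kcnip2 and Kcnh3, held 53.6% of the summed RPKM in control and 54.8% in CUMS. Accessory subunits were prominent among them. Kcnab2, a cytoplasmic beta subunit of Kv1 channels, was highest with 159.4 RPKM in control against 158.9 RPKM in CUMS, a log2 ratio of -0.0045 (-0.048 to 0.039). The largest family by summed level was Kir (235 RPKM in control against 248 RPKM in CUMS), followed by the Kv beta and KCNE subunits (208 and 205 RPKM) and the KChIP proteins (164 and 158.5 RPKM).

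**Figure D3:**
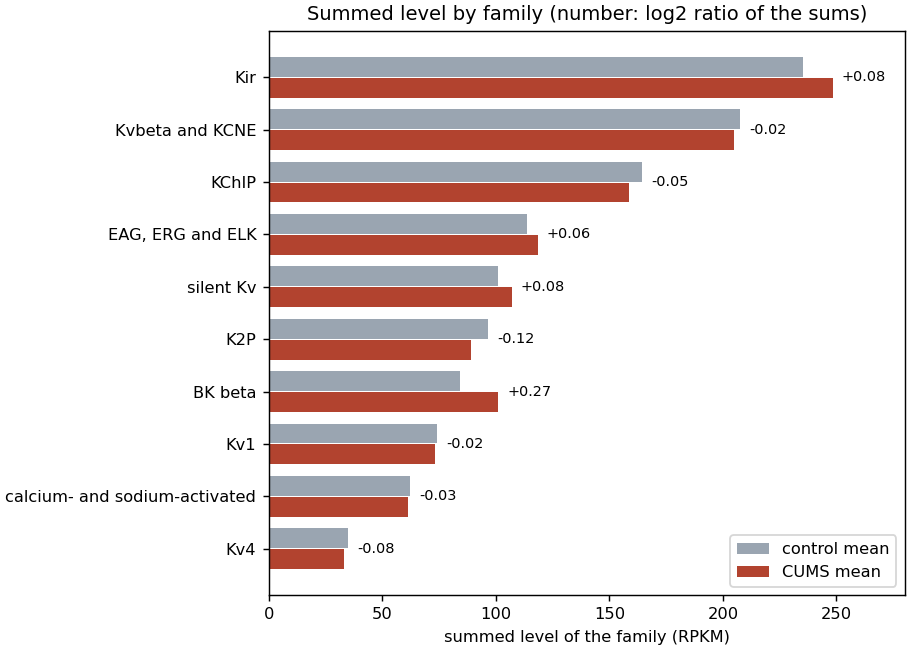
Summed RPKM (x axis) of the members of 10 potassium channel families (y axis) in the control mean (grey) and the CUMS mean (red), with the log2 ratio of the sums beside each pair; there are no error bars because the table has no replicate values. The order of the families differs little between the groups, and the widest relative gap is that of the BK beta subunits at 0.27.

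Kv1 subunits, the low-threshold channels of axons, were near equal apart from the low member Kcna3. Kcna6 was 30.7 and 31.9 RPKM in control and CUMS, Kcna2 was 17.1 and 16.5 RPKM and Kcna1 was 16.3 and 16.4 RPKM, and all 3 intervals included 0. Kcna4 had a log2 ratio of 0.024. Kcna5 was 4.42 and 3.56 RPKM, a log2 ratio of -0.31 (-0.62 to -0.0017). Of Kcna6 exon bases, 39.6% are shared with a gene on the other strand (Gm26673), and since the use of strand was not stated their reads cannot be told apart. Of the Kv beta subunits, Kcnab1 was 26.6 and 27.5 RPKM, and Kcnab3 was lower in CUMS with 16.1 and 12.2 RPKM, a log2 ratio of -0.41 (-0.59 to -0.23). Kcne1l, described as a pseudogene in the table and as protein-coding in RefSeq, was 4.88 and 4.81 RPKM.

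The Kv2 subunit Kcnb2, a delayed rectifier, was 1.45 and 1.42 RPKM in control and CUMS, a log2 ratio of -0.030 (-0.43 to 0.35). Of the silent partners of Kv2, 5 of 8 passing members were higher in CUMS, where 6639 of all 14257 genes were, and 1 interval lay above 0 (Kcnf1) and 1 below (Kcng4, given above). Their sums were 101 and 107 RPKM. Kcnf1 held most of that sum, 51.0 and 55.4 RPKM, a log2 ratio of 0.12 (0.054 to 0.19). Kcng1, Kcns1, Kcns2 and Kcnv1 were higher by log2 ratios of 0.032 to 0.17 with intervals that included 0. Kcng2 (-0.31) and Kcns3 (-0.028) had intervals that included 0 as well.

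Kv3 subunits repolarize fast-firing cells and were split. Kcnc1 was 37.3 RPKM in control against 33.7 RPKM in CUMS, a log2 ratio of -0.15 (-0.22 to -0.080). Kcnc2 was 11.4 and 12.4 RPKM, a log2 ratio of 0.12 whose lower bound was 0.0003, and Kcnc4 was 36.0 and 38.6 RPKM, a log2 ratio of 0.098 (-0.0013 to 0.20).

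Kv4 channels carry the transient current of dendrites together with KChIP proteins, calcium sensors that bind their N terminus. Kcnd2 was 15.6 and 16.2 RPKM, a log2 ratio of 0.050 (-0.074 to 0.17). Kcnd3 was lower in CUMS with 13.7 and 12.2 RPKM, a log2 ratio of -0.17 (-0.28 to -0.062), and Kcnd1 was 5.48 and 4.71 RPKM (-0.56 to 0.12 on the log2 scale). The KChIP genes moved apart from each other. Kcnip1 was 13.4 and 10.5 RPKM, a log2 ratio of -0.35 (-0.56 to -0.15), and Kcnip2 was 72.8 and 62.2 RPKM, a log2 ratio of -0.23 (-0.31 to -0.14). Kcnip3, also known as calsenilin, was higher in CUMS with 61.0 and 67.2 RPKM, a log2 ratio of 0.14 (0.062 to 0.22), and Kcnip4 had 0.12 (-0.041 to 0.28). Kcnip2 led the family in control with 44.3% of its sum, and Kcnip3 was the highest member in CUMS.

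Kv7 subunits form the M channel, which muscarinic receptors close. Of its subunits, Kcnq3 was lower in CUMS. It was 2.82 and 1.99 RPKM, a log2 ratio of -0.50 (-0.93 to -0.095). Kcnq5 was 13.8 and 14.5 RPKM, a log2 ratio of 0.081 (-0.025 to 0.19).

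The Kcnh genes encode the EAG, ERG and ELK channels. The ELK subunits Kcnh3 and Kcnh4 and the EAG subunit Kcnh1 were higher in CUMS. Kcnh3 was 68.6 and 73.5 RPKM (log2 ratio 0.099, 0.034 to 0.16), Kcnh1 was 21.3 and 23.2 RPKM (0.12, 0.040 to 0.21), and Kcnh4 was 6.07 and 7.67 RPKM (0.34, 0.13 to 0.55). The ERG subunit Kcnh2 went the other way with 15.97 and 12.2 RPKM, a log2 ratio of -0.38 (-0.52 to -0.25). Kcnh5 and Kcnh6 were under 1 RPKM in both groups, with intervals that included 0.

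**Figure D4:**
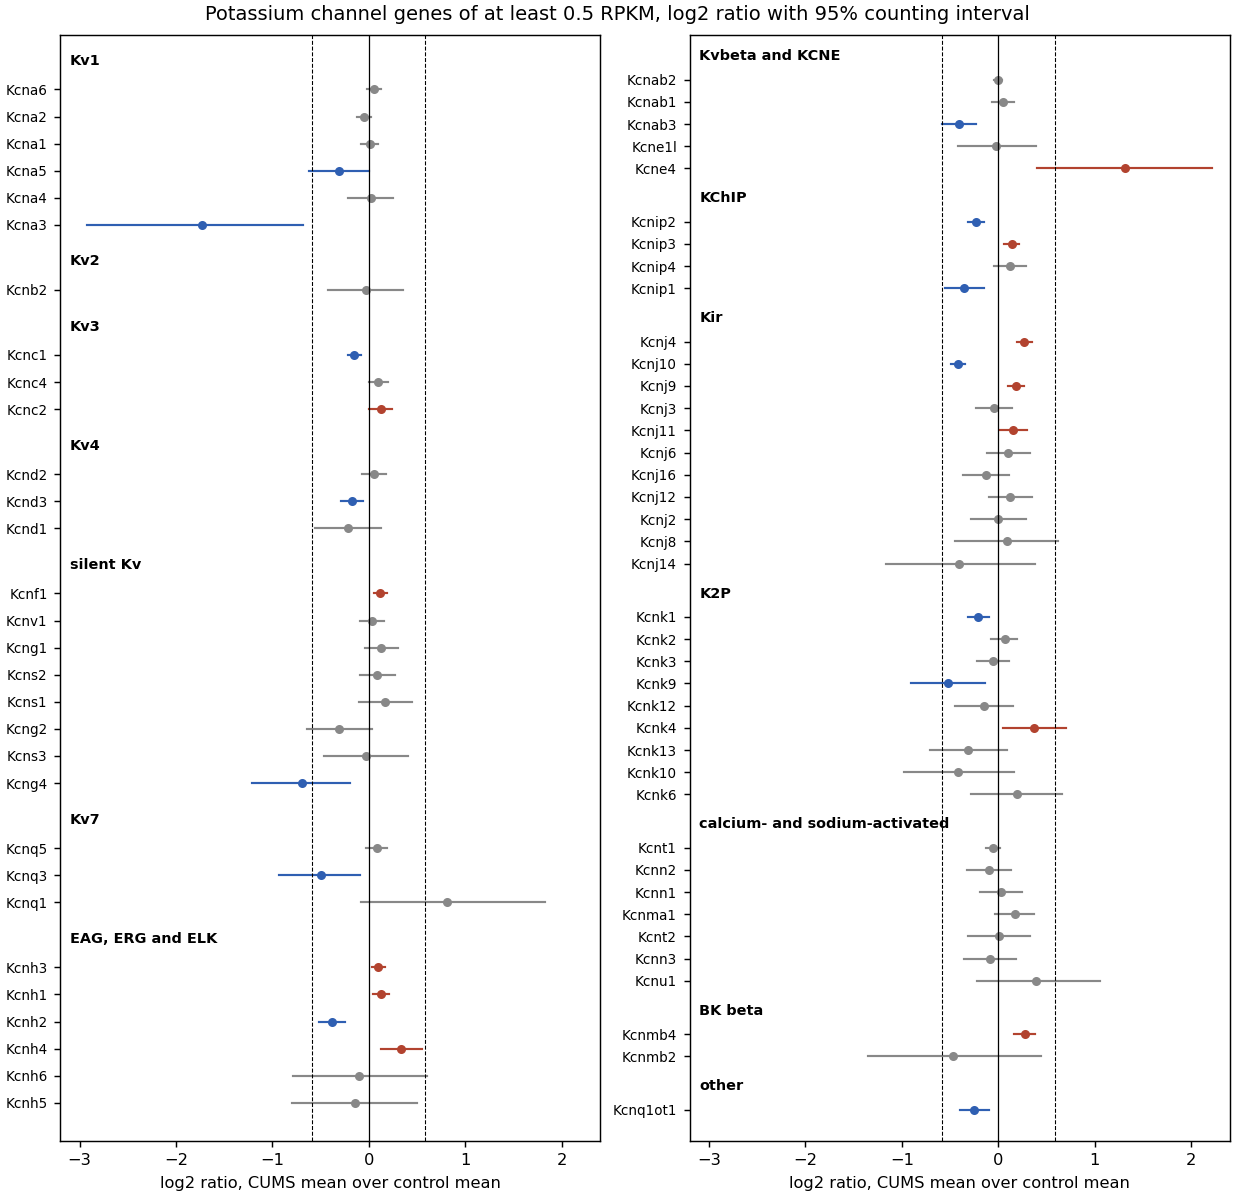
Log2 ratio of CUMS to control (x axis) of 69 of the 73 members of at least 0.5 RPKM, by family and by falling control level within a family; lines are 95% counting intervals, red and blue mark intervals wholly above and below 0, grey the rest, and dashed lines mark 1.5-fold. Red and blue members stand side by side within the Kir, K2P, Kcnh and KChIP families, and only Kcna3, Kcng4, Kcne4 and Kcnq1 have a ratio past the dashed lines.

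Kir genes are given by role, and no difference between roles was tested. The G protein-gated channels, which inhibitory receptors such as GABA-B open, summed to 74.4 RPKM in control against 80.2 RPKM in CUMS, a log2 ratio of 0.11 (0.035 to 0.18). Among them Kcnj9 was 45.6 and 51.7 RPKM, a log2 ratio of 0.18 (0.098 to 0.26), Kcnj6 had 0.11 and Kcnj3 had -0.045, both with intervals that included 0. The low Kcnj5 was on the other side with a log2 ratio of -1.78 (-3.05 to -0.69). The strong rectifiers Kcnj2, Kcnj4, Kcnj12 and Kcnj14 summed to 89.5 and 106 RPKM, a log2 ratio of 0.25 (0.18 to 0.32). This rested on Kcnj4, which was 81.0 RPKM in control against 97.7 RPKM in CUMS, a log2 ratio of 0.27 (0.20 to 0.35), while Kcnj2 (0.0028), Kcnj12 (0.13) and Kcnj14 (-0.41) had intervals that included 0. Kcnj11, the pore of the ATP-sensitive channel of neurons, was 17.0 and 19.0 RPKM, a log2 ratio of 0.16 (0.015 to 0.30), and its partner Abcc8 was 6.64 and 7.91 RPKM, a log2 ratio of 0.25 (0.079 to 0.43). Kcnj8, the pore found in pericytes, was 1.83 and 1.95 RPKM, and its partner Abcc9 was 0.98 and 0.805 RPKM, both with intervals that included 0.

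Of the channels of glia, Kcnj10 was lower in CUMS and Kcnj16 had an interval that included 0. Kcnj10, the main potassium channel of astrocytes and also a channel of oligodendrocytes, was 47.2 RPKM in control against 35.4 RPKM in CUMS, a log2 ratio of -0.42 (-0.49 to -0.35). It was the lowest ratio among the 10 highest members. Kcnj16, which assembles with it, was 5.45 and 4.99 RPKM, a log2 ratio of -0.13 (-0.37 to 0.12). Beside these, 7 of 8 oligodendrocyte genes were lower and their summed level was 1880 and 1281 RPKM. Of these the study itself lists Mbp, Mobp and Cldn11 as lower. Of 8 astrocyte genes, 4 were lower, and their summed level was 511 and 505 RPKM. The astrocyte genes were split, with Gfap (-0.41) and Gjb6 (-0.54) lower and Slc1a2 (0.048) and Slc1a3 (0.11) higher, all with intervals that excluded 0. In both lists every gene was above the level limit, and the part of these cells in the value of Kcnj10 was not tested. In such bulk tissue fewer cells of a type and less RNA per cell cannot be told apart.

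K2P channels give the leak current at rest. Of them 6 of 9 passing members were lower in CUMS, where 7589 of all 14257 genes were. Their sums were 96.6 and 89.0 RPKM. Kcnk1 was 42.8 and 37.0 RPKM, a log2 ratio of -0.21 (-0.32 to -0.099). Kcnk9, an acid-sensitive leak channel, was 7.74 and 5.40 RPKM, a log2 ratio of -0.52 (-0.91 to -0.13), the lowest among members of at least 5 RPKM. Kcnk4, a mechanosensitive channel, was higher with 5.30 and 6.85 RPKM, a log2 ratio of 0.37 (0.046 to 0.71), which was the highest among members of at least 5 RPKM. It shares 13.2% of its exon bases with Catsperz on the same strand. Kcnk2, Kcnk3, Kcnk6, Kcnk10, Kcnk12 and Kcnk13 had log2 ratios from -0.42 to 0.19, all with intervals that included 0.

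Among calcium-activated channels, the BK pore Kcnma1 was 4.39 and 4.95 RPKM, a log2 ratio of 0.17 (-0.034 to 0.38). Its neuronal beta subunit Kcnmb4 was much higher in level, 82.9 RPKM in control against 100.4 RPKM in CUMS, a log2 ratio of 0.28 (0.17 to 0.38). Of its exon bases, 20.9% are shared with the antisense gene Kcnmb4os2 and 10.7% with another, Kcnmb4os1. The SK subunits Kcnn1, Kcnn2 and Kcnn3, with the low Kcnn4, summed to 19.0 and 18.4 RPKM, a log2 ratio of -0.051 (-0.20 to 0.096). The sodium-activated channels were near equal, Kcnt1 with 35.2 and 34.0 RPKM and Kcnt2 with 2.79 and 2.81 RPKM. Kcnu1, a BK relative known from sperm, was 0.73 and 0.96 RPKM. Of the 7 passing pore genes of this group, 0 had an interval that excluded 0, against 29.3% of all genes. With only 7 genes this is not read as a trait of the group.

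The 19 members under the level limit added 2.33 RPKM to the sum in control and 2.68 RPKM in CUMS. Of these, 9 were higher, 7 were lower and 3 were equal, and 7 rested on no more than 3 fragments in either group. Kcnj13, a Kir channel of the choroid plexus, was listed at 0.01 in control and had 0.415 RPKM (8 fragments) in CUMS. This was 2.76-fold higher when 3 fragments are put in place of 0, and the lower counting bound of its log2 ratio was 0.76. On the genome 49.1% of its exon bases are shared with Gigyf2 on the other strand. Markers of the choroid plexus summed to 6.13 and 2.91 RPKM. Of 6, 4 passed the level limit and were lower, Aqp1 and Otx2 among them passed it only in control, Kl had an interval that included 0, and the low Folr1 was 0.24 and 0.29 RPKM. Ttr was 0.055 and 0.01 RPKM. The part of this tissue in the value of Kcnj13 was not tested. Kcne2 was listed at 0.01 in control and had 4 fragments in CUMS, 1.22-fold higher with 3 fragments in place of 0. Its counting interval included 0. Kcne1 in control, and Kcnk15 and Kcnk18 in CUMS, were listed at 0.01 with 1 or 2 fragments in the other group. Kcnrg, which encodes a regulator of channel assembly and no channel, had 2 and 6 fragments. Kcnh8 had 8 and 1 fragments, a log2 ratio of -2.64 (-8.48 to -0.11).

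Some members lie next to each other in the genome, and such neighbors had unlike values in some pairs and the same sign in others. Coordinates are those of RefSeq on GRCm38 (mm10), the build of the alignment. On chromosome 1, Kcnj9 (172320508 to 172329322) and Kcnj10 (172341210 to 172374085) are 11888 bases apart and had log2 ratios of 0.18 and -0.42, with intervals that did not overlap. On chromosome 3, Kcna3 (107036162 to 107038129) lies 52754 bases from Kcna2 (107090883 to 107115005), with log2 ratios of -1.73 and -0.051. Their counting intervals were separate too, but Kcna3 passed the level limit only in control, which favors a large ratio. On chromosome 6, Kcna5 (126532551 to 126535555), Kcna1 (126636463 to 126645801) and Kcna6 (126708328 to 126740834) had log2 ratios of -0.31, 0.0088 and 0.054. On chromosome 11, Kcnj16 (110968033 to 111027968) and Kcnj2 (111066164 to 111076825) had -0.13 and 0.0028. On the same chromosome Kcnmb1 lies inside the span of Kcnip1, and both were lower, with log2 ratios of -1.26 and -0.35. Kcnmb1 was under the level limit. Also under it, the neighbors Kcne1 and Kcne2 were both higher and Kcna10 was lower, all on few fragments and with intervals that included 0. Kcna10 lies near Kcna2 and Kcna3, and the interval of Kcna2 (-0.13 to 0.024) included 0 as well. Kcnq1 (chromosome 7, 143106877 to 143427050) holds the imprinted antisense RNA Kcnq1ot1 (143213111 to 143296547) inside its span, and the latter carries the Kcn symbol without being a channel. Kcnq1ot1 was 0.635 and 0.535 RPKM, a log2 ratio of -0.25 (-0.40 to -0.098), opposite in sign to Kcnq1. The interval of Kcnq1 included 0, and Kcnq1 passed the level limit only in CUMS. Their annotated exons share 121 bases, and reads of unknown strand there cannot be told apart.

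Other genes that work with potassium (22 of 23 in a list) had 7 higher and 15 lower values in CUMS. Their median log2 ratio was -0.081, and the list was chosen with earlier results known. Only Lrrc55, an accessory gamma subunit of BK channels, exceeded 1.5-fold among them, with 8.35 and 5.07 RPKM, a log2 ratio of -0.72 (-0.97 to -0.47). Of all 14257 genes at the level limit, 7589 were lower and 7.18% exceeded 1.5-fold. The Kv1 axon partners Cntnap2 and Cntn2 were lower, by log2 ratios of -0.30 and -0.34, where the Kv1 pores Kcna1 and Kcna2 were near equal. The Kv4 partners Dpp6 (-0.052) and Dpp10 (0.055) had intervals that included 0. Of the sodium-potassium pump, the beta subunit Atp1b2, best known from glia, was 188 and 152 RPKM, a log2 ratio of -0.30 (-0.35 to -0.26). Among HCN channels, which pass potassium and sodium on hyperpolarization, Hcn2 (-0.060) had an interval that included 0, and Hcn3 (-0.34) and Hcn4 (-0.47) were lower with intervals below 0.

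Markers of cell types and of other brain regions differed between the groups, and their part in the channel values was not tested. All 6 markers of excitatory cortical neurons were higher in CUMS, with summed levels of 1560 and 1871 RPKM. Markers of GABAergic neurons summed to 642 and 555 RPKM, with 4 of 7 lower. These were split, with Gad1, Gad2, Slc32a1 and Lhx6 lower with intervals below 0 and Vip (0.51) higher with an interval above 0. Pvalb (0.19) and Sst (0.054) were higher with intervals that included 0. All 10 striatal markers were lower (641 and 528 RPKM), as were all 6 of the olfactory bulb (67.1 and 31.9 RPKM) and all 8 of septum and hypothalamus (211 and 103 RPKM). The study itself lists all 8 markers of septum and hypothalamus as lower in these data. It also lists Doc2g, Th and Calb2 of the olfactory bulb, Prkcd of the thalamus and the GABAergic Gad1, Gad2 and Slc32a1. The direction of these genes was thus known beforehand and is no separate observation. Thalamic markers summed to 23.5 and 10.7 RPKM, with 3 of 4 passing genes lower, of which Prkcd (17.2 and 4.30 RPKM) alone had an interval that excluded 0. Markers of endothelial and mural cells summed to 119 and 104 RPKM (4 of 7 lower), and those of microglia to 87.7 and 95.4 RPKM (2 of 5 lower). No gene of these lists was at 0 in both groups. The labelled cortex was present in both groups, since Slc17a7 was 635 and 791 RPKM and Tbr1 was 36.8 and 45.2 RPKM.

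**Figure D5:**
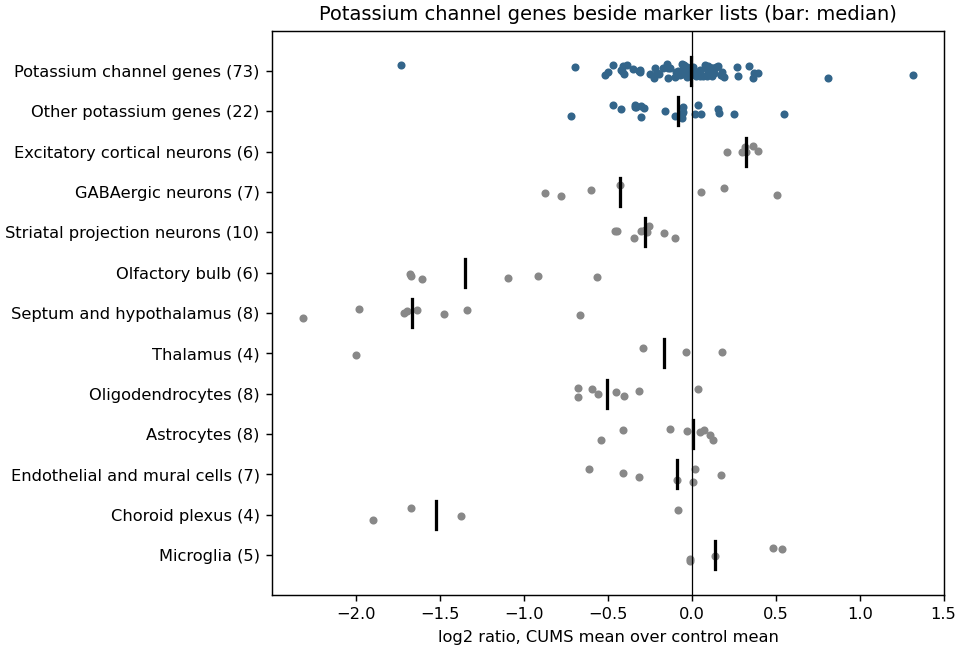
Log2 ratio of CUMS to control (x axis) of the 73 potassium channel genes, the other potassium genes and the markers of each list (y axis, number of genes of at least 0.5 RPKM in brackets); each point is a gene, points are spread vertically for display, and bars are medians. Potassium channel genes center near 0 (median -0.0045), excitatory markers lie above 0, and those of septum, hypothalamus and olfactory bulb lie below -0.5. The markers of septum and hypothalamus are all genes that the study lists as lower in these data.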

How the data were processed

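mRNA of the mPFC was sequenced in 2 control and 2 CUMS libraries. Per the methods of the study, the authors trimmed reads with SolexaQA, aligned them to mm10 with TopHat 1.0.12 and Bowtie 0.11.3 and counted uniquely aligned reads. Annotation and strandedness of the counting are not given in the sources used here. The authors deposited RPKM averaged over the libraries of a group, with 0.01 in place of 0. The deposited log2 ratio and the NOISeq probability, a score, hold the authors' own comparison and were not used. The gene lengths deposited by the authors were used for the estimate of fragments.

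Members were the 92 genes whose symbol starts with Kcn, grouped into families by symbol. Log2 ratios were taken without a pseudocount for genes with 0.5 RPKM or more in either group. The step of 1 fragment in the product of group mean and length was sought between 20 and 200 RPKM x bases, in genes under 1000 bases with a product under 350. It was 67.7 in control and 67.2 in CUMS, and 86.5% and 86.2% of 406 and 392 products differed by at most 0.15 from whole multiples of it (29.6% and 33.4% with lengths shuffled). A larger depth would narrow the intervals. Equal depth within a group was assumed. Intervals are exact Clopper-Pearson 95% intervals on these fragments, for sums a normal approximation of the same error. They and the floor of 3 fragments cover counting error only. The step and the intervals were tested on counts simulated with counting error only and equal depth in all libraries. Such data cannot show whether these assumptions hold or why the estimate is below the read numbers of the study. NOISeq, limma and edgeR need library values and were not run. Coordinates were matched by gene identifier for 92 of 92 members, and exon overlaps came from GENCODE M21. Named were members above 1.5-fold, the 10 highest and lowest ratios, the 10 highest levels, the leading, highest and lowest member of each family and members at 0.01 in 1 group, others beside their family. Some genes under this rule are not reported here. Members, lists and alternatives were chosen with earlier results of these data known. Python 3.11.15, numpy 2.4.6, pandas 2.3.3, scipy 1.17.1 and matplotlib 3.10.9 were used.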

Additional observations from a re-analysis of the deposited data

How the results depend on the processing

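No paired analysis was possible because each deposited value is a mean over a group, and for the same reason no replicate could be left out and no replicate block could be fitted. The number of members past 1.5-fold, 4, depends on the level limit and the fold. It was 0 at 5 RPKM or more, 1 with at least 0.5 RPKM in both groups and 18 (10 higher and 8 lower) with no limit, where 19.0% of all genes passed. It was 2 after 0.5 RPKM had been added to both means, 17 (6 higher and 11 lower) with an absolute log2 ratio above 0.32, against 18.9% of all genes, and 2 with a fold above 2, against 2.45% of all genes. Its other 6 alternatives gave 3 or 4. The median log2 ratio stayed between -0.012 and 0.032 under the alternatives tried, so that its sign is not determined, and the log2 ratio of the summed RPKM stayed between -0.0003 and 0.024. Rescaling CUMS shifted every log2 ratio by 0.015 or by -0.0076. The first shift made the interval of Kcna5 include 0 and that of Kcnc4 exclude it, and the second made the interval of Kcnc2 include 0. Members with a counting interval that excluded 0 numbered 20 to 38, with 20 when the estimated depth was divided by 2 and 38 when it was multiplied by 2. The shares over all genes at these depths are not given here, so that the range is not a result about the members. Of 110 family medians under alternatives, 108 lay inside the counting bounds of the family, but only 95 had the sign of the main value. The sign of several family medians is therefore not determined. The alternative without Kcnq1ot1 and Kcnrg was chosen after seeing the data.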
